A study of Mus musculus with 12 samples.

Results

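The comparison described here sets dorsal root ganglia taken 3 days after a nerve injury against ganglia taken 1 day after it, and asks which transcripts changed between these days. It uses 6 of the 12 RNA-seq libraries of the series, 3 from day 3 and 3 from day 1, chosen by the time point in their titles. All mice were adult C57BL/6J males aged 9 to 10 weeks. The injured groups had spared nerve injury, a neuropathic pain model that ties off and cuts the sciatic nerve's tibial and common peroneal branches and spares the sural branch. The other 6 libraries, 3 from naive mice and 3 from day 7, lent their spread to the model and give the levels before and after. A sham group was not analysed here, and in comparisons with naive mice the effects of surgery and of nerve damage cannot be told apart. The labels do not say whether a library came from 1 animal or from a pool, so p-values measure only the spread between these libraries.

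A dorsal root ganglion holds the cell bodies of sensory neurons, each wrapped by satellite glia, together with Schwann cells, resident macrophages, fibroblasts and vessels. Neurons whose axons are cut switch on a regeneration programme of transcription factors, growth-associated proteins and neuropeptides, and they release signals to the glia and macrophages around them. After spared nerve injury some neurons of the ganglion are injured and others keep an intact axon, so whole-ganglion RNA mixes both. In bulk RNA of this kind, more cells of a type and more RNA per cell cannot be told apart.

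The 6 compared libraries held 14591000 to 17953000 reads each, as recovered from the values. Levels are given as RPKM, that is reads set relative to gene length and library size, after scaling between libraries, and group values are means with the SD of 3 libraries. Replicates within the compared groups correlated at r = 0.957 to 0.969 across genes, which are not independent replicates. Sensory neuron and glia markers of the ganglion were present in all 6 libraries. Avil, an actin-binding protein of sensory neurons, lay between 68.4 and 101 RPKM. Of the central glia markers Olig2 was at 0 and Mog at 0.114 RPKM or less, while Aqp4, Slc1a2 and Hepacam, the 3 of 10 that passed the filter, lay between 2.28 and 4.89 RPKM. That list summed to 11.4 to 14.3 RPKM at day 1 and 10.3 to 11.4 RPKM at day 3. Cd3e, a T cell marker, was at 0.361 RPKM or less. Within both groups 1 library stood apart on the second principal component, replicate 3 at day 1 (15.1 against -7.12 and -17.8) and replicate 1 at day 3 (-16.4 against 6.08 and 6.31). Skeletal muscle transcripts were high in naive replicate 1 and day 7 replicate 2. Those libraries enter the comparison only through the filter, the scaling and the shared spread.

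Between day 1 and day 3, 72 of 14195 tested genes changed at an adjusted p under 0.05 in limma (0.507%). Of these, 54 were higher at day 3 (0.38%) and 18 were lower (0.127%), so 75.0% of the calls were rises. Without any scaling between libraries the split was 51 higher and 7 lower (87.9% higher). Rises ran from 0.56 to 3.55 on the log2 scale with a median of 1.05, and falls from -0.57 to -2.01 with a median of -0.99. The day 3 and day 1 libraries did not overlap for any of the 72 genes. Over all tested genes, 7.74% had all 3 day 3 libraries above all 3 day 1 libraries and 7.74% had them all below. An unadjusted p under 0.05 was found for 1337 genes, 730 higher and 607 lower. Of all tested genes 7112 had a log2 difference above 0 (50.1%) and 7083 below.

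**Figure D1:**
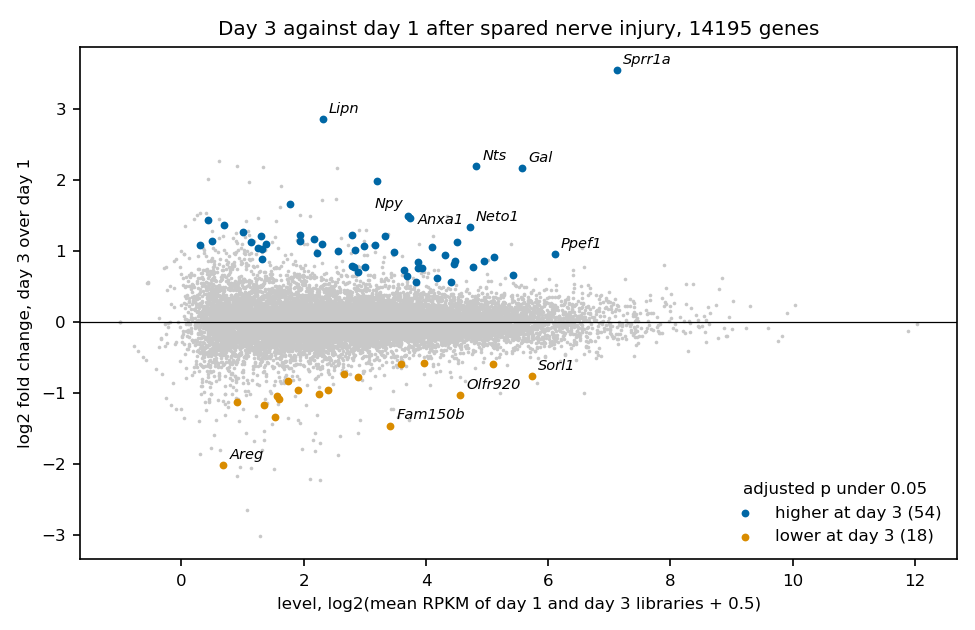
Each point is 1 of 14195 genes, with its level on the horizontal axis (log2 of the mean RPKM of the 6 libraries plus 0.5) and its log2 fold change of day 3 over day 1 on the vertical axis. Blue points are the 54 genes called higher and orange points the 18 called lower, and Sprr1a at 3.55 lies above all other called genes.

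How far these calls rest on single libraries was checked by leaving out each of the 6 libraries in turn, which leaves 2 libraries against 3. Such fits called 13 to 32 genes. Called in each of them were 11 of the 72 genes, namely Gal, Anxa1, Lipn, Lmo7, Sez6l, Neto1, Cckar, Slc6a19, Ppef1, Chst2 and Mettl7a3. The call of every other gene ended in at least 1 of these fits. With both libraries that stood apart left out, 2 libraries against 2 gave 5 calls, among them Anxa1, Car3, Fam150b and Olfr920.

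Transcripts of 4 changed genes are introduced by the bases before their start, since the 3 largest rises shared a short motif there. These were picked after the matches were seen, and Gal, the next largest rise, was not among the genes with a match. The motif TGANTCA, the site bound by AP-1 factors such as Jun and Atf3 family dimers, was searched on both strands in the 250 bases before each RefSeq start (build GRCm38.p6). It was found in 6.75% of 32851 promoters, and 7.82% of 27025 genes had it in at least 1 promoter. Of the 54 genes that rose, 41 had a promoter in the table and 5 of these held the motif (12.2%). They were Sprr1a, Lipn, Nts, Ms4a7 and Cd84. Of the 18 that fell, 17 had a promoter and 1 held the motif (Galnt16, 5.88%). The share of 7.82% covers all genes with a RefSeq promoter and not only the tested ones, and the difference between these shares was not tested. The sequences below run 5′ to 3′ on the gene's strand with the matching letters in capitals, and end where the gene begins in GENCODE M21. They cover chr3:92485896-92486131 (minus strand) for Sprr1a, chr19:34067108-34067357 (plus strand) for Lipn and chr10:102490487-102490668 (minus strand) for Nts.
Sprr1a: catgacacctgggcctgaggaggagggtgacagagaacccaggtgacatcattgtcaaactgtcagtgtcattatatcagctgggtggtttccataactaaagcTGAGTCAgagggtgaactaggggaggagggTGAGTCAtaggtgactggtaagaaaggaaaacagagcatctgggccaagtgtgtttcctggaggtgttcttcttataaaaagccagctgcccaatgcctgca
Lipn: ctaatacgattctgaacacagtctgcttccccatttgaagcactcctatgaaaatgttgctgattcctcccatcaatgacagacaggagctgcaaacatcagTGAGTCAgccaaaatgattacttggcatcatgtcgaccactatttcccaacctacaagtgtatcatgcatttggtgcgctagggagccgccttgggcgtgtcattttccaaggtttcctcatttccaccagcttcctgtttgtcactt
Nts: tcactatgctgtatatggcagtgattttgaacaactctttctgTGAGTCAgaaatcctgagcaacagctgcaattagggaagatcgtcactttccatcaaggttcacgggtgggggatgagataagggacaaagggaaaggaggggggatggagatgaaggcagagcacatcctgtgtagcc
In each of them the letters were TGAGTCA. They began 146 and 116 bases before the RefSeq start of Sprr1a, 148 before that of Lipn and 207 before that of Nts. The largest fall, Areg, is shown for contrast at chr5:91139349-91139598 (plus strand), with the cAMP response element TGACGTCA in capitals, 61 bases before the start.
Areg: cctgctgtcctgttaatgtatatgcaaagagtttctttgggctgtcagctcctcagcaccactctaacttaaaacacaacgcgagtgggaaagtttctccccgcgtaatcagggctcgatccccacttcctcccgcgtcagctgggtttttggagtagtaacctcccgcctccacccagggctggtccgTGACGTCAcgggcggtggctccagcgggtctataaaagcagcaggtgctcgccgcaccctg
This element is its own reverse complement and was found in 1.55% of promoters and 1.77% of genes, in 1 of the 41 rises (Tmc7) and in 2 of the 17 falls (Areg and Paqr3). The glucocorticoid response element, searched by its consensus on both strands, was in 0.387% of promoters and 0.44% of genes, in none of the 41 rises and in 1 fall (Fam107a). A match describes these letters only and is not evidence of binding.

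Neuropeptides held the highest share of rises among gene lists with at least 5 tested members. Gal and Nts were markers given for this comparison, and the lists were chosen with earlier results known, so this rank is no test. Of 10 listed injury-induced peptides 5 were tested, and 3 rose, Gal, Nts and Npy (60.0%, against 0.38% of all genes). The list median was 1.49 against 0.00 for all genes. Gal (chr19:3409915-3414544) encodes galanin, an inhibitory peptide long known to be made by axotomised sensory neurons. It stood at 20.3, 13.3 and 16.8 RPKM in the day 1 libraries and at 66.4, 90.1 and 74.8 RPKM at day 3. All day 3 libraries lay above all day 1 libraries, and the log2 difference was 2.17 (SE 0.25, adjusted p = 0.0041). Naive ganglia held 2.29 ± 0.408 RPKM (SD, n = 3) and day 7 ganglia 58.9 ± 20.8 RPKM of Gal. The difference from naive was 2.62 at day 1 and 4.80 at day 3.

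Nts (chr10:102481756-102490486), which encodes neurotensin, read 13.3, 7.08 and 8.70 RPKM at day 1 and 38.6, 57.2 and 41.1 RPKM at day 3. The groups lay far apart, with a log2 difference of 2.20 (SE 0.29, adjusted p = 0.0067), a call that ended without day 1 replicate 3 (adjusted p = 0.061). Npy (chr6:49822710-49829507), the gene of neuropeptide Y, was nearly absent from naive ganglia at 0.242 ± 0.325 RPKM. Its level was 8.44, 4.62 and 6.28 RPKM at day 1 and 16.6, 19.4 and 19.9 RPKM at day 3. With 1 library left out, the rise of 1.49 (SE 0.28, adjusted p = 0.040) kept its call only without day 1 replicate 1, and the adjusted p in the other 5 fits was 0.11 to 0.15. The call of Npy also ended in other settings, among them 0.1 in place of 0.5 RPKM added before the log (adjusted p = 0.41). It held in the fit on the 6 compared libraries alone (adjusted p = 0.010). Adcyap1, which encodes PACAP, did not pass, at 80.6 ± 15.3 RPKM on day 1 and 66.8 ± 1.41 RPKM on day 3, while its day 1 level lay 2.12 above the naive level of 17.9 ± 1.27 RPKM (adjusted p = 1.2e-05). Nmb, the other tested peptide, differed by -0.07. Cck and Vip stayed below the filter.

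Growth-associated genes gave the largest single rise. Sprr1a (chr3:92483952-92485895), a small proline-rich protein of the cornified envelope that regenerating neurons also make, read 48.1, 10.0 and 18.7 RPKM at day 1. At day 3 its level was 238, 295 and 224 RPKM, so the means differed 9.84-fold. The log2 difference was 3.55 (SE 0.53, adjusted p = 0.029), but the day 1 libraries themselves were spread from 10.0 to 48.1 RPKM, and the call held only without day 1 replicate 1 (adjusted p = 0.0044, and 0.057 to 0.13 in the other fits). Naive ganglia held 2.24 ± 0.92 RPKM of Sprr1a, and day 7 ganglia 277 ± 114 RPKM.

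Of the 44 tested genes for axon growth and the cytoskeleton, 3 rose (6.82% called, against 0.507% of all genes). None fell, and the median was 0.19. Besides Sprr1a the rises were those of Lmo7 and Marcks. Lmo7 (chr14:101729957-101934710), an actin-linked LIM-domain protein, rose from 15.5, 13.2 and 12.5 RPKM to 35.0, 30.1 and 26.8 RPKM, a difference of 1.12 (SE 0.14, adjusted p = 0.0041). Its libraries were tight at both days, and its naive level was 3.38 ± 0.664 RPKM. Marcks, an actin-binding substrate of protein kinase C at the growing membrane, rose from 8.89 ± 0.831 to 15.1 ± 1.76 RPKM (0.73, adjusted p = 0.047), a call that ended in all 6 fits with 1 library left out (adjusted p 0.088 to 0.23). Gap43, the classic growth cone protein, read 68.2, 44.6 and 72.3 RPKM at day 1 and 129, 138 and 110 RPKM at day 3. Its groups did not overlap, yet its difference of 1.05 (SE 0.22) missed the threshold at an adjusted p of 0.062. Among tubulins and stathmins, none of them called, Tubb6 differed by 0.74, Stmn4 by 0.67, Tubb3 by 0.51 and Stmn3 by -0.09. The neurofilament genes Nefl, Nefm and Nefh lay at -0.08, -0.09 and -0.16. In all, 29 of the 44 listed genes lay above 0 (65.9%, against 50.1% of all genes) and 15 below. General sensory neuron markers differed little, with no call among 16 and a median of 0.04.

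Anxa1 (chr19:20373428-20390944) encodes annexin A1, a calcium-dependent phospholipid-binding protein with anti-inflammatory actions. It read 7.20, 7.43 and 5.13 RPKM at day 1 and 16.3, 18.3 and 22.6 RPKM at day 3. The groups were clearly apart, with a difference of 1.47 (SE 0.19, adjusted p = 0.0041). Naive ganglia held 3.52 ± 0.998 RPKM and day 7 ganglia 17.0 ± 1.83 RPKM. It was the only call among 16 tested annexins and S100 proteins, whose median was 0.22. Anxa2 differed by 0.38 and S100a10, its binding partner, by 0.53, neither of them called.

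**Figure D2:**
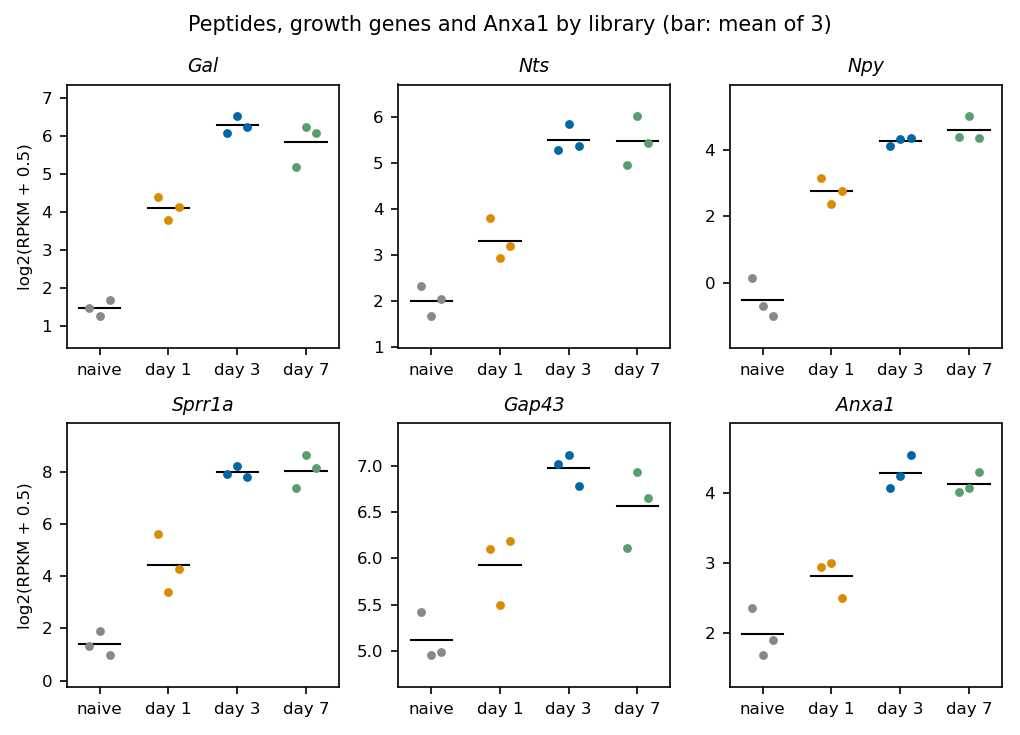
Levels of 6 genes in the 12 libraries, as log2(RPKM + 0.5) on the vertical axis, with naive, day 1, day 3 and day 7 libraries side by side and a bar at the mean of 3. For Gal, Nts, Npy, Sprr1a, Gap43 and Anxa1 all 3 day 3 points lie above all 3 day 1 points.

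None of 16 tested transcription factors of the injury response was called, and their median was -0.02. Atf3, a stress-induced factor that marks axotomised neurons, went from 2.38 ± 0.144 RPKM in naive ganglia to 70.1 ± 8.51 RPKM at day 1 and 89.7 ± 10.0 RPKM at day 3. Its difference between the injured groups was 0.35 (adjusted p = 0.43), and its day 3 libraries all lay above its day 1 libraries. Sox11, another factor of axon regeneration, stood at 25.8 ± 5.10 and 36.4 ± 5.08 RPKM (0.50, adjusted p = 0.34). Jun and Stat3 differed by -0.09 and -0.08. A call missed here does not show that levels were equal.

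Several receptors, transporters and enzymes rose. Sez6l, a seizure-related transmembrane protein, rose from 12.2, 9.60 and 10.2 RPKM to 26.1, 21.6 and 20.4 RPKM (1.05, SE 0.15, adjusted p = 0.0067), from a naive level of 1.83 ± 0.466 RPKM. Neto1, an auxiliary subunit of kainate and NMDA receptors, read 17.1, 13.2 and 13 RPKM at day 1 and 43.2, 35.6 and 32.6 RPKM at day 3, and its difference was 1.34 (SE 0.18, adjusted p = 0.0041). Naive ganglia held 12.7 ± 1.14 RPKM, and the difference from naive at day 1 was 0.16 (adjusted p = 0.75).

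Both cholecystokinin receptors rose, while Cck itself was at or below 0.0843 RPKM in all 6 libraries. Cckar (chr5:53697776-53707705) went from 3.23, 3.61 and 4.03 RPKM to 9.09, 8.92 and 9.50 RPKM (1.23, SE 0.16, adjusted p = 0.0041). Cckbr went from 2.87, 1.88 and 2.11 RPKM to 5.59, 6.70 and 4.93 RPKM (1.17, SE 0.19, adjusted p = 0.022). Beside the naive libraries, Cckar at day 1 lay 0.17 from its level of 3.16 ± 0.151 RPKM (adjusted p = 0.71), and Cckbr lay 1.76 above its naive level of 0.319 ± 0.104 RPKM (adjusted p = 0.00012). Without a library the call of Cckbr held only where day 1 replicate 1 or day 3 replicate 3 was left out, with adjusted p up to 0.11 otherwise.

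Among transporters, Slc6a19, a sodium-dependent carrier of neutral amino acids, rose from 3.42 ± 0.323 to 7.35 ± 0.329 RPKM (1.00, SE 0.14, adjusted p = 0.0046). Slc6a4, the serotonin transporter, rose from 1.78 ± 0.0441 to 4.87 ± 0.841 RPKM (1.22, adjusted p = 0.025) from a naive level of 0.0775 ± 0.0721 RPKM. Gabrg1, a gamma subunit of the GABA-A receptor, rose from 7.04 ± 0.82 to 14.4 ± 0.943 RPKM (0.98, adjusted p = 0.023) and was the only call among 39 tested neurotransmitter receptors, whose median was -0.13. Gpr133, an adhesion receptor named Adgrd1 in RefSeq, rose from 4.64 ± 0.949 to 10.2 ± 1.14 RPKM (1.07, adjusted p = 0.022). With 1 library left out, Slc6a4 lost its call in all 6 fits (adjusted p 0.066 to 0.14), and Gabrg1 and Gpr133 kept theirs only without day 1 replicate 1, with adjusted p up to 0.10 and 0.093 otherwise.

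Of the enzymes, Ppef1, a calcium-binding protein phosphatase of sensory neurons, had the smallest p in the comparison. It read 47.3, 48.5 and 43.1 RPKM at day 1 and 88.6, 93.7 and 88.5 RPKM at day 3, a difference of 0.96 (SE 0.11, adjusted p = 0.0040). Lipn, a lipase of the keratinising epidermis, rose from 1.21, 0.288 and 0.747 RPKM to 8.52, 8.06 and 7.89 RPKM (2.86, SE 0.32, adjusted p = 0.0040), on 6 to 28 reads at day 1 and 185 to 200 reads at day 3. This call ended with 0.1 in place of 0.5 RPKM added before the log (adjusted p = 0.079). Chst2, a sulfotransferase of glycan chains, rose from 23.4 ± 2.35 to 44.5 ± 2.91 RPKM (0.92, adjusted p = 0.0041). Mettl7a3, a methyltransferase-like gene with close relatives, rose from 15.3 ± 0.32 to 28.2 ± 1.5 RPKM (0.86, adjusted p = 0.0041). Mmp16, a membrane-bound matrix metalloproteinase, rose from 21.5 ± 3.57 to 39.4 ± 5.58 RPKM (0.87, adjusted p = 0.031), although no fit with 1 library left out called it (adjusted p 0.066 to 0.13).

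Potassium, sodium, calcium and HCN channel genes made up 2 lists. None of 45 tested potassium channel genes was called, and their median was -0.18. Of the 45, 35 lay below 0, against 7083 of all 14195 genes. An unadjusted p under 0.05 was found for 9, all lower, against 607 lower of all 14195 genes. None of 33 tested sodium, calcium and HCN channel genes was called, with a median of -0.27. Scn10a, the Nav1.8 channel of nociceptors, read 185, 209 and 195 RPKM at day 1 and 136, 132 and 155 RPKM at day 3 (-0.48, adjusted p = 0.16). Scn11a, which encodes Nav1.9, went from 128 ± 8.62 to 90.6 ± 9.64 RPKM (-0.50, adjusted p = 0.10). Both sets of libraries were apart. Cacna2d1, the calcium channel subunit that binds gabapentin, lay the other way, at 172 ± 29.5 and 300 ± 32.7 RPKM (0.81, adjusted p = 0.086). Nociceptor peptides and receptors (29 tested, median -0.16), mechanoreceptor genes (17, -0.13) and synaptic release genes (30, -0.10) had no call either.

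Macrophage markers held more called genes than any other list, though the lists differ in size. Of 30 listed, 27 were tested and 5 rose (18.5% called, against 0.507% of all genes), with none lower. The 5 were Mrc1, Ms4a7, Emr1, Ctss and Csf1r. Of the 27, 23 lay above 0 (85.2%, against 50.1% of all genes), and the median was 0.62 against 0.00 for all genes. Csf1 (chr3:107741048-107760469), the cytokine that injured sensory neurons make and that macrophages need to survive, rose with its receptor gene. It read 11.1, 9.40 and 10.5 RPKM at day 1 and 18.7, 16.8 and 18.1 RPKM at day 3, a difference of 0.77 (SE 0.13, adjusted p = 0.022). Naive ganglia held 2.38 ± 0.373 RPKM, and Csf1 was higher than this at day 1 by 1.92 (adjusted p = 1.4e-06).

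Csf1r, the receptor, rose from 1.26 ± 0.227 to 2.74 ± 0.428 RPKM (0.88, SE 0.18, adjusted p = 0.047). Its level at day 1 differed from that in naive ganglia by -0.04 (adjusted p = 0.96). Mrc1 (chr2:14229392-14332057), the mannose receptor CD206, read 5.69, 4.93 and 5.97 RPKM and then 12.9, 15.0 and 12.6 RPKM, with a difference of 1.21 (SE 0.17, adjusted p = 0.0067). Emr1, named Adgre1 in RefSeq and known as the F4/80 antigen, rose from 1.15 ± 0.165 to 2.87 ± 0.265 RPKM (1.03, adjusted p = 0.019). Ctss, the lysosomal protease cathepsin S, rose from 4.19 ± 0.508 to 9.09 ± 1.74 RPKM (1.02, adjusted p = 0.040), and Ms4a7 from 1.00 ± 0.418 to 2.95 ± 0.834 RPKM (1.21, adjusted p = 0.040). At day 1 Ms4a7 and Emr1 differed from naive by -0.46 and -0.26, and Ctss and Mrc1 by 0.22 and 0.12, none called. The day 3 level of Ms4a7 differed from naive by 0.75 without a call (adjusted p = 0.088).

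Outside the list, the myeloid surface genes Fcrls, Cd33 and Cd84 also rose. Fcrls, a scavenger receptor typical of resident macrophages and microglia, went from 1.23 ± 0.723 to 4.65 ± 0.601 RPKM (1.66, adjusted p = 0.023). Cd33 differed by 1.04 and Cd84 by 1.09 (adjusted p = 0.042 and 0.047). At day 1 Cd33, Cd84 and Fcrls differed from naive by -0.18, -0.42 and 0.32, none called. The day 3 level of Cd84 differed from naive by 0.67 without a call (adjusted p = 0.10). Lyz2, the lysozyme of myeloid cells, read 23.3, 29.3 and 24.2 RPKM at day 1 and 36.9, 63.4 and 71.1 RPKM at day 3 without a call (1.10, adjusted p = 0.14). Lyve1 and Cd163, other markers of tissue-resident macrophages, differed by -0.13 and 0.42, and Gpnmb by -0.61.

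These calls were sensitive to single libraries. Mrc1 lost its call without day 3 replicate 2 (adjusted p = 0.054). Csf1, Fcrls and Cd33 kept theirs in 1 of 6 fits, Emr1 and Ms4a7 in 2, and Csf1r, Ctss and Cd84 in none, with adjusted p up to 0.23 for Csf1r. The kept fits were without day 1 replicate 1 for Csf1, Fcrls and Emr1, without day 1 replicate 2 for Cd33 and Ms4a7, without day 3 replicate 3 for Emr1 and without day 3 replicate 1 for Ms4a7. The summed level of the macrophage list ran from 147 to 169 RPKM at day 1 and from 174 to 253 RPKM at day 3. Neutrophil markers, summed, ran from 11.5 to 20.9 RPKM at day 1 and from 15.1 to 71.1 RPKM at day 3. All 8 tested members lay above 0 (median 0.69), against 50.1% of all genes, and none was called. The highest summed value came from day 3 replicate 3, where S100a9 stood at 28.5 RPKM against 5.37 and 3.97 RPKM in the other day 3 libraries. The part of neutrophils in the myeloid rises was not tested. No lymphocyte marker of 17 passed the filter.

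**Figure D3:**
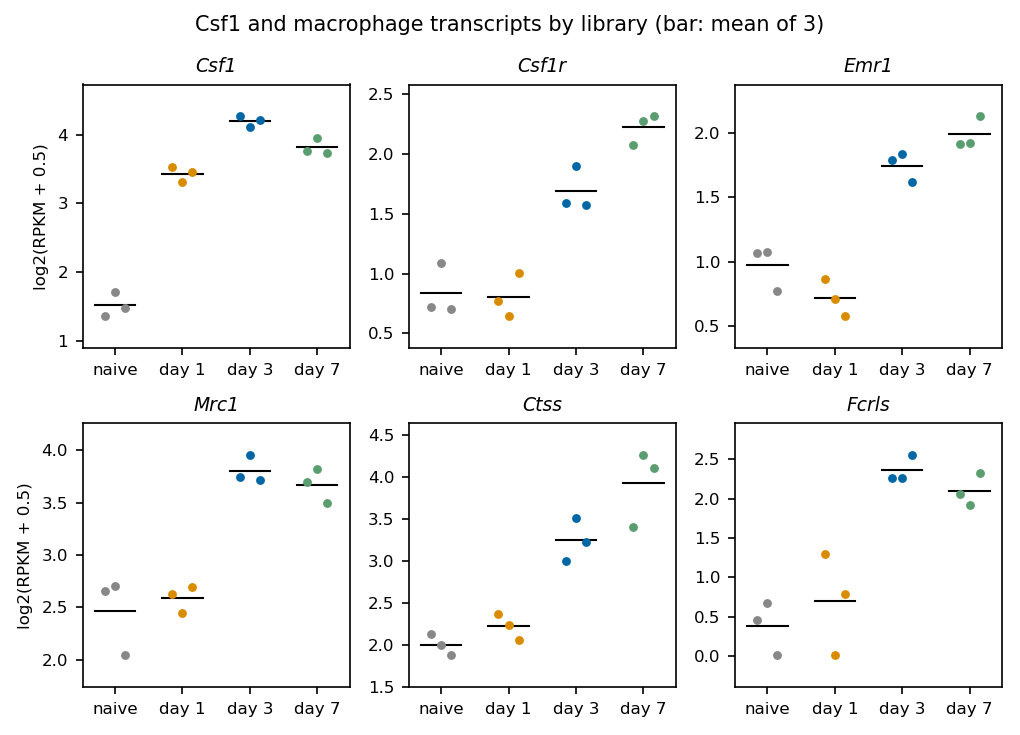
Csf1 and 5 macrophage transcripts in the 12 libraries, as log2(RPKM + 0.5), with a bar at the mean of 3 libraries. Csf1 stands above naive at day 1. Of the other 5, none was called against naive at day 1, with Ctss and Fcrls 0.22 and 0.32 above it on the log2 scale. All 5 are higher at day 3 than at day 1. The order of these changes was not tested.

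Lists of glia, matrix and cell division genes held few calls. Ednrb, the endothelin B receptor of satellite glia, rose from 10.9 ± 1.74 to 18.7 ± 1.09 RPKM (0.76, SE 0.14, adjusted p = 0.031). Its day 1 level lay under the naive level of 17.4 ± 1.34 RPKM by 0.66 (adjusted p = 0.017), and its day 3 level differed from naive by 0.10 (adjusted p = 0.78). It was the only call among 15 satellite glia genes (median 0.03), and it kept its call only without day 1 replicate 1 (adjusted p 0.098 to 0.13 in the other fits). Myelinating Schwann cell genes (17 tested, median 0.06), repair Schwann cell genes (9, 0.10) and vessel genes (19, -0.04) held no call. Pmp2, a lipid-binding myelin protein, was at 5.67 ± 1.28 RPKM at day 1 and 14.1 ± 2.40 RPKM at day 3 without a call (1.25, adjusted p = 0.10).

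Of 30 fibroblast and matrix genes none was called, though Col3a1, a fibrillar collagen, missed narrowly at 11.6 ± 0.363 and 18.4 ± 1.36 RPKM (0.64, adjusted p = 0.052). Col5a3, a collagen chain outside the list, rose from 9.88 ± 1.19 to 18.3 ± 3.66 RPKM (0.84, adjusted p = 0.029), with a call kept only without day 3 replicate 3. None of 25 tested cell division genes was called, while 20 lay above 0. Mki67, a marker of cycling cells, read 2.59, 1.94 and 1.76 RPKM at day 1 and 4.24, 4.06 and 7.21 RPKM at day 3 (1.10, adjusted p = 0.082).

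Inhbb, which encodes the beta B chain of activin, rose from 2.71, 3.01 and 2.19 RPKM to 6.18, 7.43 and 5.11 RPKM (1.10, SE 0.20, adjusted p = 0.028). Its call held only without day 3 replicate 3 (adjusted p 0.057 to 0.15 in the other fits). In the same pathway Fst, the activin antagonist follistatin, stood at 5.13 ± 1.18 and 10.3 ± 1.70 RPKM (0.95, adjusted p = 0.077), and Acvr1c, an activin receptor, at 0.611 ± 0.286 and 1.96 ± 0.131 RPKM (1.18, adjusted p = 0.086). The other 18 of the 19 tested activin, follistatin and BMP genes were not called, and the median of the list was 0.16.

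Car3, carbonic anhydrase 3, is abundant in fat and slow muscle. It read 2.46, 2.12 and 5.66 RPKM at day 1 and 12.6, 13.8 and 15.3 RPKM at day 3 (1.99, SE 0.33, adjusted p = 0.027), and kept its call only without day 1 replicate 3. The fat markers Adipoq and Plin1 were at 0.53 RPKM or less in the 6 libraries, and Fabp4 differed by -0.07. Hsd17b7, an enzyme of cholesterol synthesis, rose from 32.8 ± 3.88 to 52.3 ± 3.93 RPKM (0.67, adjusted p = 0.047), the only call among 24 genes of that pathway (median 0.15). No fit with 1 library left out called it (adjusted p 0.075 to 0.18).

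Falls were fewer than rises. Comparisons with naive share libraries with the comparison of the 2 days, so their values stand beside each gene only as levels. Areg encodes amphiregulin, a ligand of the EGF receptor. It read 1.73, 1.08 and 3.52 RPKM at day 1, on 18 to 79 reads, and 0, 0.102 and 0.214 RPKM at day 3, on 0 to 4 reads. The fitted difference of -2.01 (SE 0.40, adjusted p = 0.040) depends on the 0.5 RPKM added before the log, and naive ganglia held 0.196 ± 0.147 RPKM. Areg passed the filter of RPKM 1 in 3 libraries only through the day 1 libraries, where it was high. Its entry to the test thus depended on the levels being compared. Fam150b, named Alkal2 in RefSeq, encodes a ligand of the ALK receptor. It read 16.2, 17.9 and 11.2 RPKM at day 1 and 3.40, 5.72 and 6.59 RPKM at day 3 (-1.46, SE 0.23, adjusted p = 0.015). Its naive level was 3.12 ± 0.339 RPKM, and its difference from naive was 2.08 at day 1 (adjusted p = 0.00012) and 0.62 at day 3 (adjusted p = 0.14).

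Of 15 tested glucocorticoid targets 2 fell, Fkbp5 and Zbtb16 (13.3% called, against 0.507% of all genes), and none rose. Of the 15, 13 lay below 0, against 7083 of all 14195 genes, and the median was -0.29. Fkbp5, a co-chaperone of the glucocorticoid receptor, read 8.91, 8.36 and 9.26 RPKM at day 1 and 5.35, 4.93 and 4.67 RPKM at day 3 (-0.77, SE 0.15, adjusted p = 0.040). Zbtb16, a zinc finger repressor also called PLZF, read 3.60, 3.08 and 2.32 RPKM and then 1.60, 0.873 and 0.752 RPKM (-1.17, SE 0.24, adjusted p = 0.047). For Fkbp5 the day 3 level lay 0.15 under the naive level of 5.60 ± 0.744 RPKM (adjusted p = 0.69). The widely used targets Tsc22d3, Sgk1 and Per1 differed by -0.12, -0.15 and -0.34 without a call. Clock genes, which share some of these members, held no call among 17 and had a median of -0.03.

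Further falls are given beside their naive levels. Hif3a, a subunit of the hypoxia-inducible factors, fell from 3.61 ± 0.609 to 1.46 ± 0.44 RPKM (-1.09, adjusted p = 0.040) beside a naive level of 1.35 ± 0.165 RPKM. Pde4c, a cAMP-degrading phosphodiesterase, fell from 6.46 ± 0.518 to 3.11 ± 0.492 RPKM (-0.95, adjusted p = 0.025) beside 3.27 ± 0.501 RPKM in naive ganglia. Etnppl, a phospho-lyase of phosphoethanolamine, fell from 3.57 ± 0.413 to 1.18 ± 0.557 RPKM (-1.34, adjusted p = 0.042) beside 1.11 ± 0.144 RPKM. Olfr920, an olfactory receptor with close relatives, fell from 31.2 ± 7.79 to 14.8 ± 1.68 RPKM (-1.03, adjusted p = 0.028) beside 12.5 ± 0.884 RPKM, and Fam107a, an actin-bundling stress gene, from 7.31 ± 0.109 to 4.25 ± 0.931 RPKM (-0.74, adjusted p = 0.049) beside 3.35 ± 0.196 RPKM.

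For other falls the naive and day 1 levels lay close. Sorl1, a sorting receptor of neurons, read 65.1, 72.5 and 61.6 RPKM at day 1 and 40.3, 34.7 and 41.8 RPKM at day 3 (-0.76, SE 0.15, adjusted p = 0.040). Naive ganglia held 71.1 ± 8.46 RPKM of Sorl1, and the difference from naive was -0.10 at day 1 and -0.86 at day 3 (adjusted p = 0.84 and 0.0032). Paqr3, a Golgi protein that tethers Raf kinase, fell from 3.77 ± 0.622 to 1.90 ± 0.256 RPKM (-0.83, adjusted p = 0.033), and Tmprss11c, a membrane serine protease, from 2.06 ± 0.204 to 0.679 ± 0.169 RPKM (-1.13, adjusted p = 0.026). Naive levels of these genes were 4.42 ± 0.276 and 1.84 ± 0.306 RPKM, and their day 7 levels were 4.61 ± 0.503 and 1.62 ± 0.373 RPKM.

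Hn1, named Jpt1 in RefSeq, rose from 14.4, 12.1 and 12.8 RPKM to 23.8, 26.9 and 26.0 RPKM (0.94, SE 0.13, adjusted p = 0.0067), a call that ended only without day 3 replicate 2 (adjusted p = 0.056). Cyp1b1, a cytochrome P450 that oxidises steroids and xenobiotics, rose from 15.5 ± 0.831 to 27.7 ± 1.99 RPKM (0.82, adjusted p = 0.010). Ildr2, a membrane protein of the immunoglobulin family, rose from 5.26 ± 1.36 to 11.7 ± 1.96 RPKM (1.09, adjusted p = 0.023). Among secreted proteins, Metrnl, a cytokine-like relative of meteorin, rose from 5.13 ± 0.359 to 8.71 ± 0.743 RPKM (0.71, adjusted p = 0.029), and Sfrp1, a Wnt antagonist, rose to 16.6 ± 1.05 RPKM at day 3 (0.57, adjusted p = 0.031). Cyp1b1 kept its call without day 1 replicate 1, day 1 replicate 2 or day 3 replicate 3, Ildr2 without day 1 replicate 1 or day 3 replicate 3, and Metrnl and Sfrp1 in none of these fits.

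Of the other falls, Lpar5, a receptor of lysophosphatidic acid, went from 5.81 ± 0.97 to 2.70 ± 1.01 RPKM (-1.01, adjusted p = 0.047), Ube2q2, a ubiquitin-conjugating enzyme, from 40.4 ± 2.76 to 26.7 ± 1.68 RPKM (-0.59, adjusted p = 0.028) and Sytl3, a synaptotagmin-like effector of Rab27, from 18.2 ± 1.96 to 12.1 ± 1.32 RPKM (-0.57, adjusted p = 0.047). Without a library, Lpar5 was called only in the fit that left out day 3 replicate 3, and Ube2q2 and Sytl3 in none. Cog8 and Galnt16 fell by 1.04 and 0.96 on the log2 scale, with calls kept only without day 3 replicate 3 for Cog8 and day 3 replicate 1 for Galnt16. The other named rises were those of Hsd3b3, Slfn9, Tnfaip8, Trp53i11, Cd1d1, Hist1h1c, Pxdc1, Scpep1, Tvp23b, Gpx8, Tmc7 and Ap1s2, from 1.28 for Hsd3b3 to 0.56 for Ap1s2. With 1 library left out, Slfn9 was called only without day 1 replicate 2, Hist1h1c without day 3 replicate 1, Pxdc1 without day 3 replicate 2, and Scpep1 and Tvp23b without day 1 replicate 1. The calls of Hsd3b3, Tnfaip8, Trp53i11, Cd1d1, Gpx8, Tmc7 and Ap1s2 ended in all 6 fits. Another 4 called genes have names taken from clones or sequence records, and 3 of them were higher and 1 lower.

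None of the 18 falls was called in every fit with 1 library left out. Fam150b kept its call in 3 fits, without day 1 replicate 3 and without day 3 replicate 1 or 3, and the largest adjusted p in the others was 0.061. Zbtb16, Pde4c and Fam107a kept theirs only without day 3 replicate 1, Tmprss11c only without day 3 replicate 3 and Olfr920 only without day 1 replicate 3. Areg, Fkbp5, Hif3a, Etnppl, Sorl1 and Paqr3 were called in none of the 6 fits, with adjusted p from 0.054 for Areg up to 0.21 for Sorl1.

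**Figure D4:**
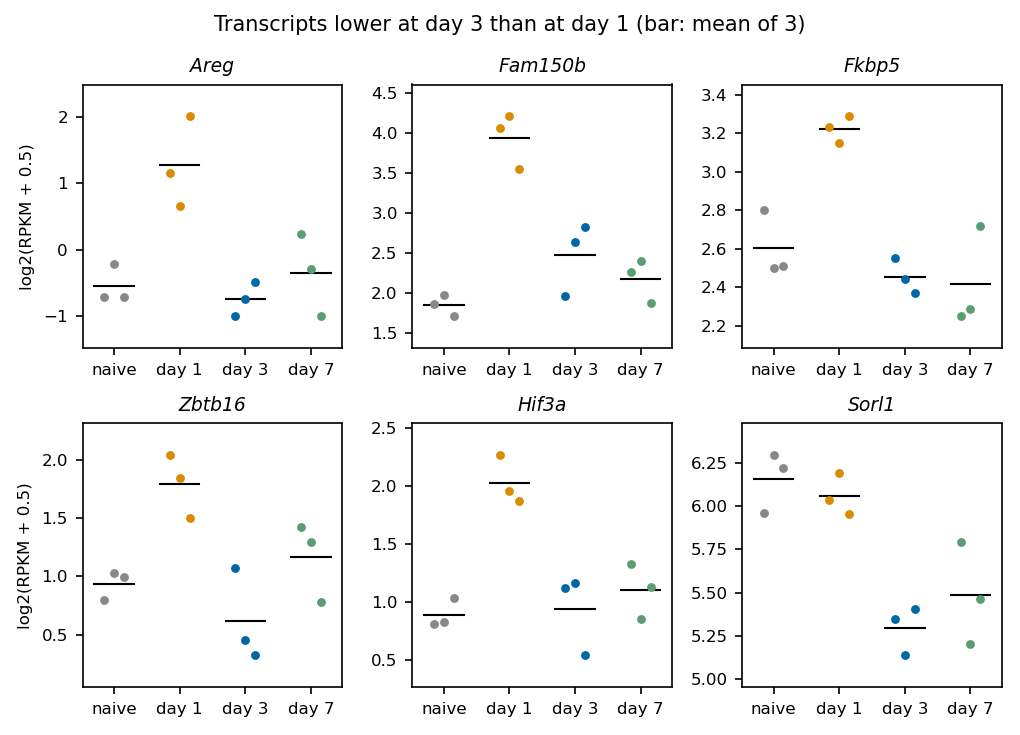
Levels of 6 genes called lower at day 3, as log2(RPKM + 0.5) in the 12 libraries, with a bar at the mean of 3. Areg, Fam150b, Fkbp5, Zbtb16 and Hif3a are highest at day 1, while Sorl1 is similar in naive and day 1 ganglia and lower at day 3.

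Of 19 tested genes in a list of other injury-induced neuronal genes 3 were called (15.8%, against 0.507% of all genes). Csf1 and Sez6l were higher and Fam150b lower, and the list median was 0.11. Lists without any call included complement (15 tested, median 0.14), the interferon response and antigen presentation (30, 0.06), stress and chaperone genes (21, 0.05), immediate early genes (15, -0.16), and neurotrophic receptors with gp130 signalling (18, -0.07). Ribosomal protein genes lay slightly higher together, with 73 of 77 above 0 (94.8%, against 50.1% of all genes). Their median was 0.26, but none was called. Their summed level overlapped between the groups, from 1174 to 1742 RPKM at day 1 and from 1309 to 1968 RPKM at day 3. Respiratory chain genes had a median of 0.11 with no call among 72.

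**Figure D5:**
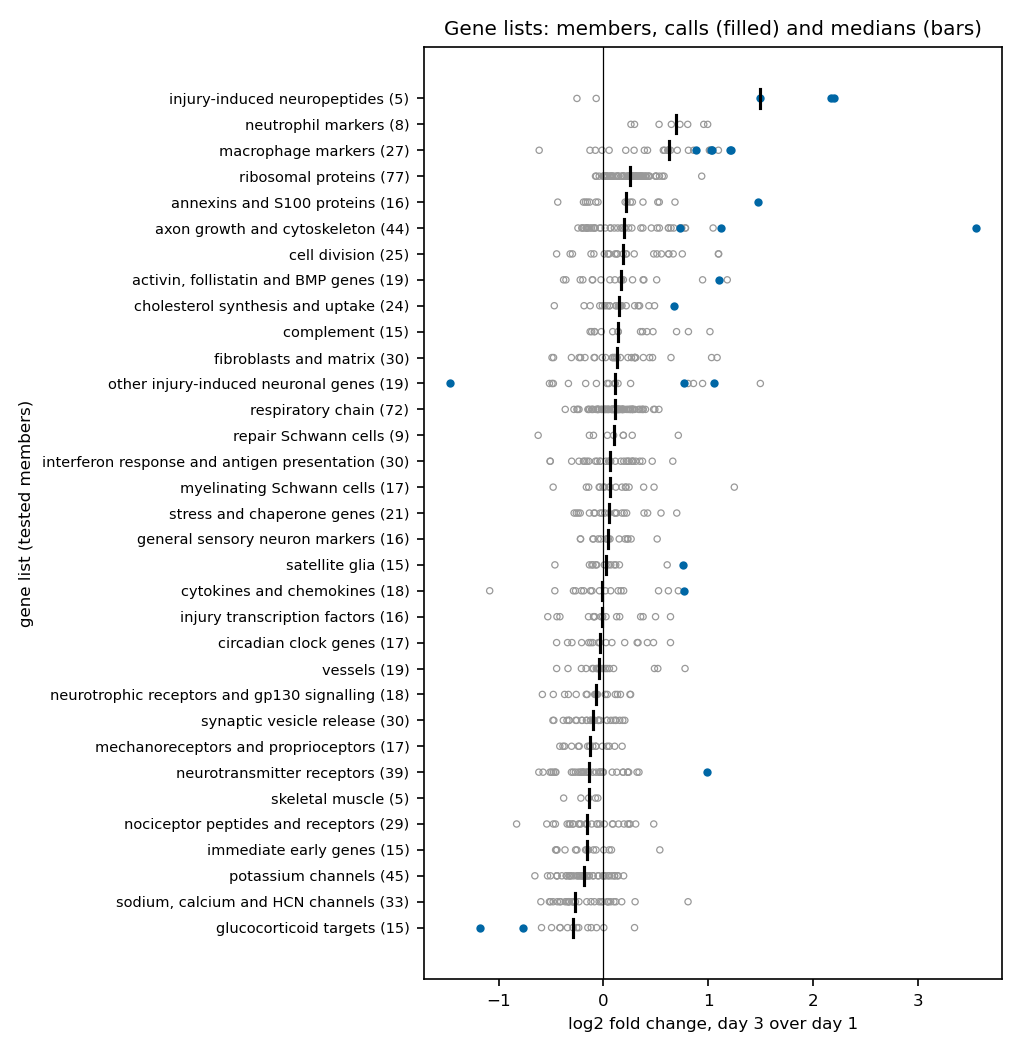
Log2 fold change of day 3 over day 1 on the horizontal axis for the tested members of each gene list with at least 5 of them, with their number in parentheses. Open points were not called, filled points were called, and bars are medians, highest for neuropeptides at 1.49 and lowest for glucocorticoid targets at -0.29.

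The naive and day 7 libraries, which also entered the filter, the scaling and the spread of the model, give the later state of the same genes. The counts that follow describe these genes and are not an independent check of the calls. Between naive and day 7, 52 of the 54 genes that rose from day 1 to day 3 were above 0, with a median of 1.26. Of the 18 that fell, 8 were above 0 and 10 below, with a median of -0.06. Over all tested genes 50.3% were above 0 and the median was 0.00. At day 7, Gal, Anxa1 and Neto1 stood 4.35, 2.14 and 1.68 above naive (adjusted p = 7.0e-07, 1.2e-05 and 6.8e-05), while Areg, Fam150b and Fkbp5 stood 0.19, 0.33 and -0.19 from it (adjusted p = 0.92, 0.64 and 0.71).

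Some values carry a limit from the counting. Strandedness of the libraries is not stated, and reads from an antisense gene over the exons cannot be separated, which touches Neto1, Ildr2, Csf1r, Sorl1, Paqr3, Galnt16 and Sytl3 in GENCODE M21. Hsd3b3, Mettl7a3, Slfn9, Hist1h1c and Olfr920 belong to families of near-identical genes, so reads may be split among members.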

How the data were processed

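Dorsal root ganglia of 12 libraries were compared, 3 each from naive mice and days 1, 3 and 7 after spared nerve injury. Per the labels' protocols, RNA was amplified with a kit for 500 pg of input, which can add spread between libraries. The submitters' processing notes name mm10, STAR, HTSeq, bcl2fastq 2.17, limma and edgeR, with no roles stated. The deposited values were read as RPKM computed by the authors, an inference from the values, which within a gene were whole multiples of 1 read. Whole reads were recovered for 19764 of 21597 detected genes (91.5%, tolerance 0.05 reads), which gave 13627000 to 17953000 reads per library. The files name genes by symbol, and 22776 of 24060 symbols (94.7%) were found in GENCODE M21. Another 27 had been turned into dates.

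The 14195 genes that reached RPKM 1 in 3 or more libraries were tested. Libraries were scaled by unweighted trimmed means of log ratios (trim of 30% of ratios and 5% of levels at each end), and log2(RPKM + 0.5) was fitted in limma 3.58.1 (R 4.3.3, statmod 1.5.0) with 4 group means, 8 residual degrees of freedom, a variance trend and robust moderation. Two-sided p-values were adjusted by Benjamini-Hochberg over the 14195 genes, and the threshold was 0.05. Fold changes on this scale understate the change of low genes. An exact permutation test of 3 against 3 cannot go below 0.1, so single genes were tested in the model only. The reads of paired day 1 or day 3 replicates differed by more than counting noise (chi-square 7.15 to 27.2 per gene), so none was treated as a duplicate deposit. Naive and day 7 pairs were not compared this way.

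The comparison, the 37 gene lists and the genes to be named were chosen with earlier results of these data known. By the naming rule, the text names the 12 rises and 12 falls of largest size among calls with an average log2 level above 2 and groups that did not overlap, the members of smallest p in each list (at most 3), and Gal, Nts, Anxa1, Atf3, Sprr1a, Npy, Gap43, Sox11, Csf1 and Scn10a. Other genes were named after their values were seen. Alternatives covered the pseudocount, filter, scaling, model, recovered reads, gene length, a replicate block and each library left out, with 18 planned and 3 added after seeing the data. Promoters came from RefSeq (GRCm38.p6), and coordinates from GENCODE M21 on the same build.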

Additional observations from a re-analysis of the deposited data

How the results depend on the processing

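Against 72 genes called (54 higher, 18 lower), array weights gave 349 (200 higher, 149 lower), voom on the recovered reads 146 (106 and 40) and a gene length correction 131 (93 and 38). The lower genes alone numbered 11 with a pseudocount of 0.1, 8 with a filter at RPKM 5, 7 without scaling and 10 without trend and robust moderation, and the other counts at these settings stayed within 1.5 times the reported ones. Median scaling, a pseudocount of 1, no filter and a fit on the 6 libraries alone gave 69, 85, 54 and 60 calls. Of the 72 calls, 72 remained with array weights, 69 with voom and 41 in the fit on the 6 libraries alone. Added after seeing the data, leaving out naive replicate 1 and day 7 replicate 2 gave 46 calls (40 higher, 6 lower), and leaving out naive replicate 1 and day 7 replicate 1 gave 90 (71 higher, 19 lower). Leaving out day 1 replicate 3 and day 3 replicate 1 gave 5 (3 higher, 2 lower). With 1 compared library left out, 13 to 32 genes were called, 13 to 32 of them higher and 0 to 6 lower. None of the 72 called genes changed direction in any of these settings that tested it, and the cause of each shift was not tested.

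Deviations of same-numbered day 1 and day 3 libraries correlated at -0.018, -0.15 and 0.080. For day 3 and day 7 the same numbers gave 0.23, 0.18 and 0.065, the highest with day 7 for each day 3 library. For naive and day 7 they gave -0.34, -0.16 and -0.040. These values do not settle whether the replicate number in the titles pairs the libraries. Entered as a replicate block, the number gave 31 calls (28 higher, 3 lower), 30 of them among the 72, and not every library correlated best with its own number. Depth limits the low genes most, since in the compared libraries 1 read over 1 kb equalled 0.0557 to 0.0685 RPKM, and reads amplified without molecular identifiers are not independent molecules.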
